A study of Mus musculus with 90 samples.

Results

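Nitric oxide synthase, the endothelin, renin-angiotensin and natriuretic peptide genes set the tone of blood vessels, and 9 of them were examined here: Nos3, Edn1, Ednra, Ednrb, Agt, Agtr1a, Ace, Npr1 and Npr3. They were taken as the rows of the expression table that carry the mouse Entrez Gene identifier of each gene, and all 9 were found among the 20414 genes listed. The rule uses no measured value. The table holds 90 libraries from female C57BL/6J mice (C57BL/6 in the labels) whose age is labelled as 10 weeks, staged as estrus or diestrus from stained vaginal smears, with 3 libraries for each phase of 15 tissues. The study's methods state a younger age, and describe taking all tissues from mice killed in triplicate per phase, so that libraries of different tissues can come from the same mice, but the labels do not say which. Whole tissue was sequenced, so a lower level can stand for fewer cells of a type or for less RNA per cell, which cannot be told apart.

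Nos3 is the nitric oxide synthase of endothelium, and nitric oxide relaxes the underlying smooth muscle through cyclic GMP. Edn1 encodes the precursor of endothelin-1, a strong constrictor that acts through Ednra on smooth muscle, while Ednrb on endothelium can also promote relaxation and clear the peptide. Agt encodes angiotensinogen, from which renin and then Ace, the angiotensin converting enzyme, make angiotensin II, the ligand of the receptor encoded by Agtr1a. Npr1 is the guanylyl cyclase receptor of the cardiac natriuretic peptides, and Npr3 is their clearance receptor.

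Levels are given as FPKM; the unit counts fragments relative to transcript length and library size, and allows genes to be set side by side. Calls needed a log2 fold change, computed from log2(FPKM + 1), of 1 or more in either direction and an adjusted p no higher than 0.05 in limma, with Benjamini-Hochberg adjustment over all genes tested. Approximated from the deposited FPKM, the depth came to about 8790000 to 17500000 reads in 89 libraries, with a median of 15400000. It came to about 74500 in brown adipose tissue (BAT) estrus replicate 3, which listed 12048 genes at 0 against 2404 to 4820 in the others. The study's methods state a higher number of reads generated for each sample. Marker lists of cell types were highest in the tissue they name, with the exception of the astrocyte list, which was highest in ovary. The smooth muscle, endothelial and fibroblast lists were highest in vein.

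One of the aorta libraries stood apart in smooth muscle, fat and heart muscle markers. Estrus replicate 1 had a summed level of 6 smooth muscle markers of 16214 FPKM against 1667 to 2547 FPKM in the other 5 libraries. These 5 carried 3341 to 6050 FPKM of brown adipocyte markers, 2073 to 2315 FPKM of white adipocyte markers and 1805 to 3793 FPKM of cardiomyocyte markers, while estrus replicate 1 carried 410 FPKM, 182 FPKM and 276 FPKM. It also had 132 FPKM of granulosa and luteal markers, against 3.76 to 6.05 FPKM in the others. The 8 endothelial markers summed to 280 FPKM in this library and to 360 to 449 FPKM in the rest. Where leaving out this library changed a call or a direction of a gene named below, the value without it is given. Aorta diestrus replicate 3 in turn had 311 FPKM of uterine epithelial markers against 3.31 to 8.14 FPKM in the others. Its 50.3 FPKM of lymphocyte markers and 349 FPKM of skeletal muscle fibre markers were also the highest among the aorta libraries. The part of these other cell types in the aorta results was not tested.

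**Figure D1:**
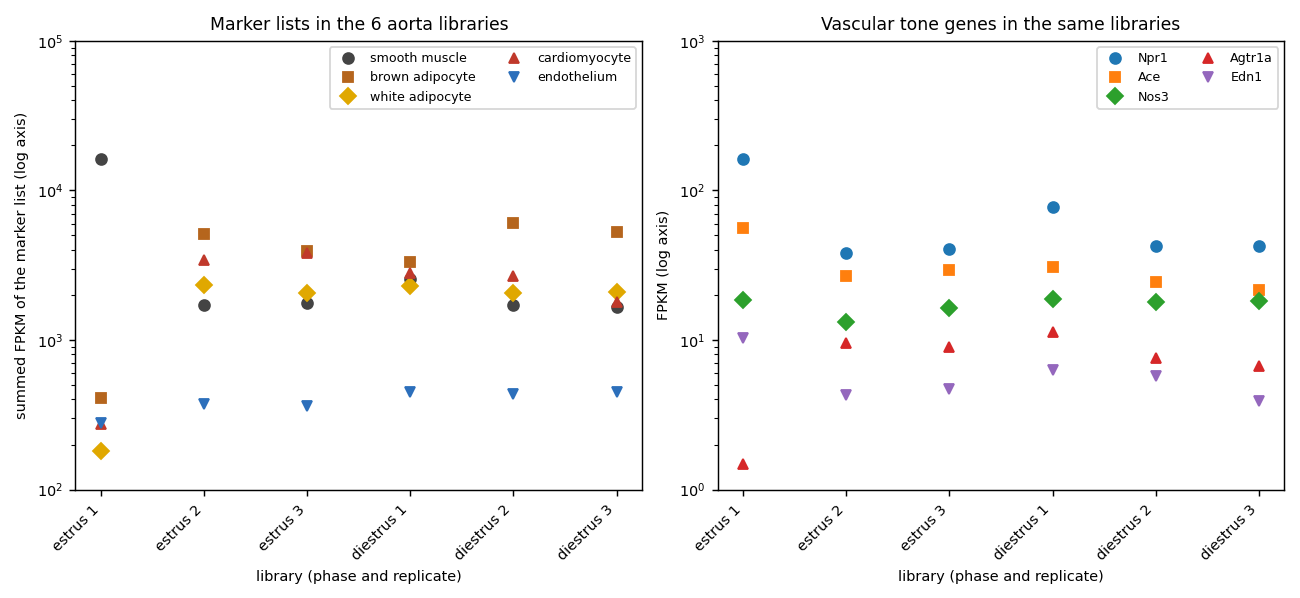
Left, summed FPKM of 5 marker lists in each of the 6 aorta libraries (log axis), and right, FPKM of 5 vascular tone genes in the same libraries (log axis). Estrus replicate 1 had the highest smooth muscle sum, the lowest fat and heart muscle sums, the highest Npr1, Ace and Edn1 and the lowest Agtr1a.

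Promoter sequence is shown for Agt and Ace, the members that reached the highest levels, since estrus and diestrus differ in ovarian steroids and the estrogen receptor is known to bind inverted repeats of GGTCA. The RefSeq table of GRCm38.p6 held windows for 7 of the 9 members, with a pair of starts for Ace and 8 windows in all, and the 250 bases before each start were searched on both strands for GGTCA, for the TATA box letters TATAAA and for the core of the GC box, which reads GGGCGG. The windows are printed 5′ to 3′ on the strand of the gene, with the matches in capitals. They are chr8:124569707-124569956 on the minus strand for Agt, chr11:105967698-105967947 on the plus strand for the first Ace start and chr11:105974939-105975188 on the plus strand for the second.
Agt: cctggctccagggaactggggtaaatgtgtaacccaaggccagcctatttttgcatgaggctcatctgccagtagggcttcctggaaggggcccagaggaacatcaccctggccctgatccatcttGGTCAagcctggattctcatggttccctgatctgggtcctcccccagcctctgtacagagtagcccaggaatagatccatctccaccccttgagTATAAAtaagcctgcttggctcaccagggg
Ace, first start: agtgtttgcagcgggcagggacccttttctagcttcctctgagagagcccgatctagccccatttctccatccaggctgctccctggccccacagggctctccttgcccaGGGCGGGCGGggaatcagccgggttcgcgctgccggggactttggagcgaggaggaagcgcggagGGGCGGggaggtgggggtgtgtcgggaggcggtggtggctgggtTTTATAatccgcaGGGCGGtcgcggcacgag
Ace, second start: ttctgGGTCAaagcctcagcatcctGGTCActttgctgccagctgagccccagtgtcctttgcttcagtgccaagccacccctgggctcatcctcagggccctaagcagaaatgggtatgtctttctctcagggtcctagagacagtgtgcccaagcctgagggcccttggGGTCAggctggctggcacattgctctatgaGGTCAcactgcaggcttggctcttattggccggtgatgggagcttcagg

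The Agt window held TATAAA 30 to 25 bases before the start and GGTCA 124 to 120 bases before it. The first Ace window held 4 matches of GGGCGG, of which a pair overlaps, and TATAAA on the minus strand, which reads TTTATA as printed, 31 to 26 bases before the start. The second Ace window held 4 matches of GGTCA and neither of the other motifs. Of the 8 member windows, 2 held TATAAA, 3 held GGTCA and 2 held GGGCGG, beside 12.4%, 35.2% and 32.7% of the 32851 windows of all genes. The search was for single copies of GGTCA. In the member windows all of these lay on the strand of the gene, so none of the windows held an inverted repeat of GGTCA. The deposited FPKM are per gene, so transcripts from the 2 Ace starts were not separated.

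Across the 15 tissues each gene had its own order of levels. In this order, 19 of 126 neighbouring tissues did not overlap in any of their 6 libraries (background over all genes 11.1%), so that most neighbours differed by less than their spread. The plot of levels by tissue shows all libraries.

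**Figure D2:**
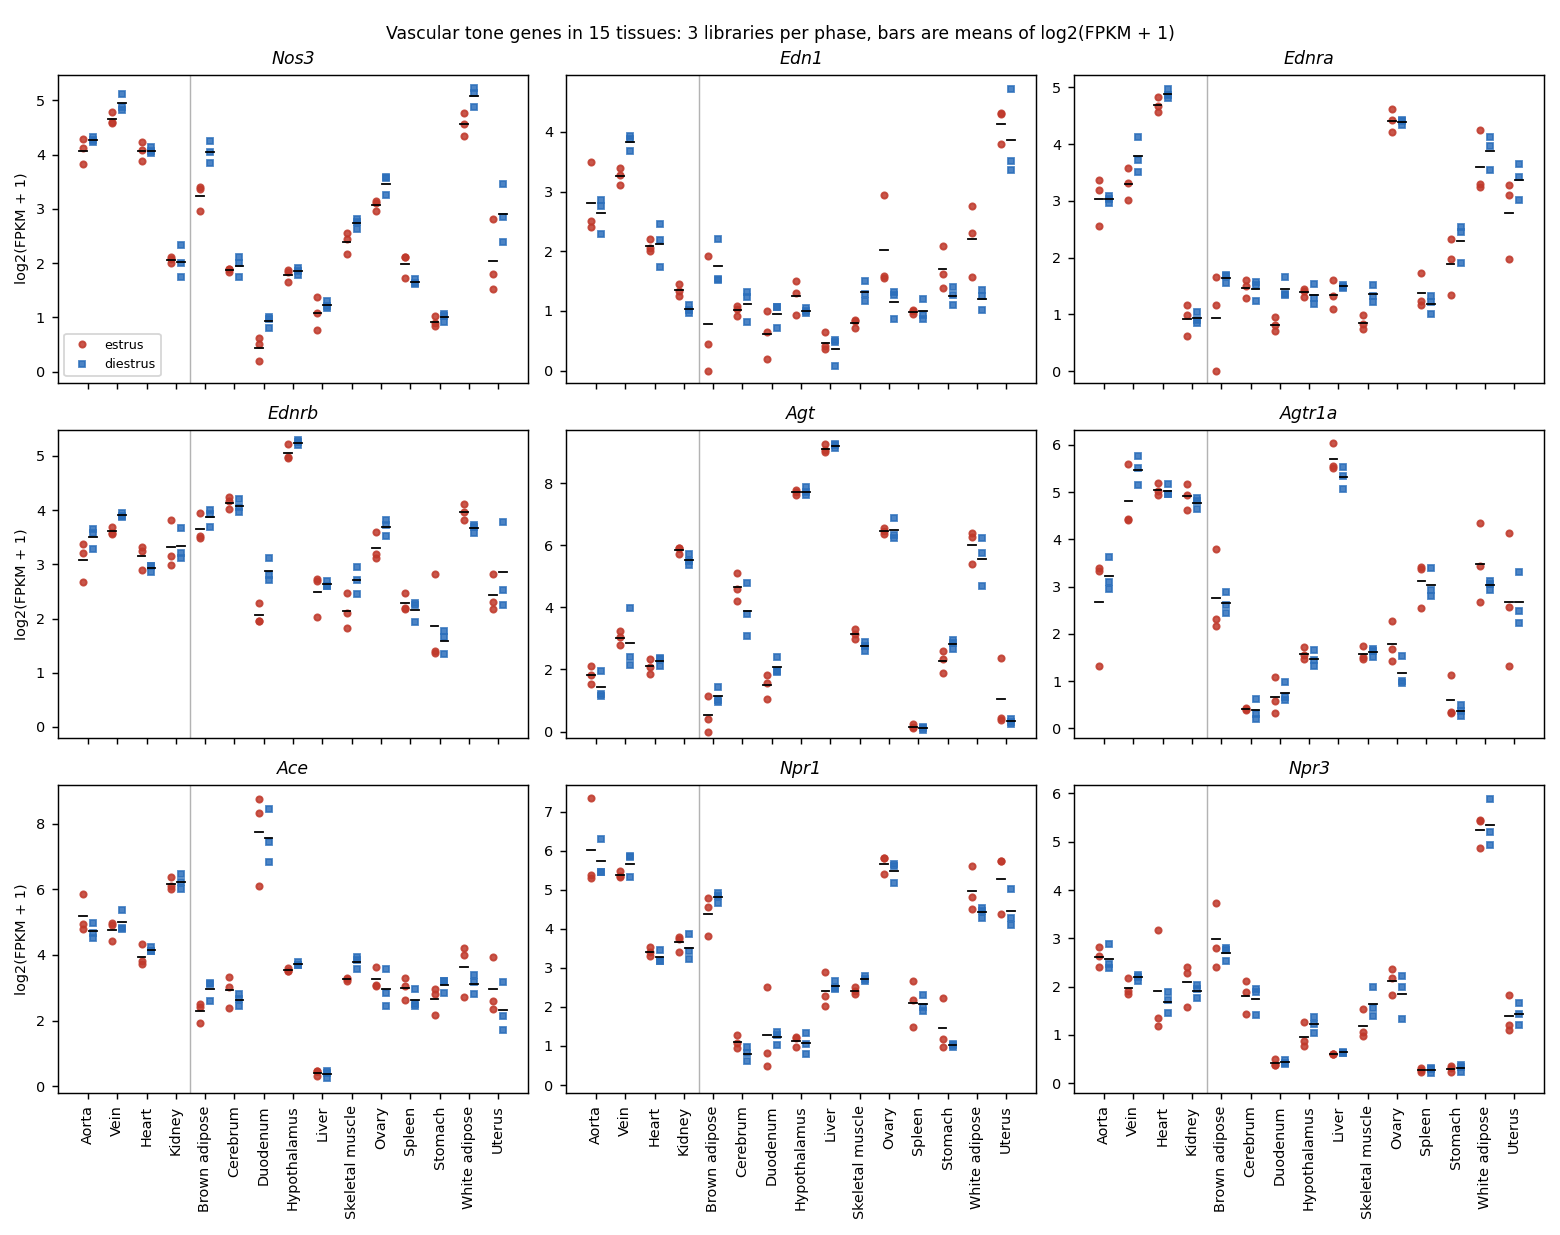
Log2(FPKM + 1) of the 9 genes in 15 tissues, with 3 estrus (circles) and 3 diestrus (squares) libraries each and bars for the mean of a phase; aorta, vein, heart and kidney stand left of the grey line. Differences between tissues are larger than those between the phases, as for Agt, which runs from 0.0933 FPKM in spleen to 569 FPKM in liver.

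Nos3 was highest in white adipose tissue (WAT), at 27.9 ± 6.55 FPKM, and in vein, at 27.0 ± 4.02 FPKM (SD, n = 6 here and for each tissue mean that follows), which overlapped. Vein lay above aorta, at 17.2 ± 2.18 FPKM, in every library. Heart at 15.8 ± 1.31 FPKM, BAT at 12.1 ± 4.25 FPKM and ovary at 8.78 ± 1.74 FPKM followed, each overlapping the next. Kidney had 3.16 ± 0.561 FPKM, and the lowest level was 0.638 ± 0.334 FPKM in duodenum. The genes whose tissue means were most like Nos3 were Rasip1 (Pearson r = 0.97 over 15 tissues), Kank3 (r = 0.97) and Egfl7 (r = 0.97), the last a marker of endothelium. These r values and those below describe tissue means that share libraries and depth, and 15226 genes that averaged 1 FPKM or more were ranked.

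Edn1 was highest in uterus (labelled womb), at 15.9 ± 6.16 FPKM, followed by vein at 11.0 ± 2.72 FPKM, aorta at 5.88 ± 2.36 FPKM and heart at 3.37 ± 0.734 FPKM. Every neighbouring pair in its order overlapped. Liver had the lowest level, 0.340 ± 0.167 FPKM. Without aorta estrus replicate 1 the aorta mean was 4.99 ± 1.00 FPKM (n = 5). Gata2, a transcription factor of endothelium and blood cells, had the most similar tissue means (r = 0.91), followed by Kcne4 (r = 0.90) and S100a7a (r = 0.90).

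The endothelin receptors were distributed differently. Ednra was highest in heart, at 26.8 ± 2.77 FPKM, then in ovary at 20.2 ± 1.94 FPKM, WAT at 12.9 ± 4.10 FPKM, vein at 11.0 ± 3.23 FPKM and aorta at 7.31 ± 1.47 FPKM, and kidney was lowest at 0.918 ± 0.247 FPKM. Ednrb was highest in hypothalamus, at 34.7 ± 3.37 FPKM, above cerebrum at 16.3 ± 1.32 FPKM in every library. It stood at 12.6 ± 1.58 FPKM in vein, 9.26 ± 2.50 FPKM in kidney, 9.03 ± 2.204 FPKM in aorta and 7.29 ± 1.13 FPKM in heart. Kidney and aorta overlapped all of these tissues, while vein lay above heart in every library. Closest to Ednra were Kank2 (r = 0.89), Emilin2 (r = 0.89) and Slc12a4 (r = 0.86), and closest to Ednrb were Gpr135, Lrp3 and Pcdhgb5 (each r = 0.90).

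Among the renin-angiotensin genes, Agt was a liver gene in these libraries, in which liver had 512 to 610 FPKM, hypothalamus 193 to 232 FPKM and ovary 74.1 to 116 FPKM. These 3 tissues did not overlap. Kidney had 50.9 ± 7.55 FPKM, vein 7.38 ± 4.12 FPKM, heart 3.58 ± 0.611 FPKM and aorta 2.18 ± 0.851 FPKM. One uterus library stood apart, estrus replicate 3, with 4.15 FPKM against 0.19 to 0.36 FPKM in the other 5. Gamt (r = 0.84), Fads2 (r = 0.81) and Aars (r = 0.81) were most like Agt.

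The receptor gene Agtr1a was highest in liver, at 45.4 ± 10.6 FPKM, vein at 36.8 ± 14.1 FPKM, heart at 32.0 ± 2.55 FPKM and kidney at 28.0 ± 4.18 FPKM, which overlapped in this order. A gap without overlap separated kidney from WAT, at 9.34 ± 5.10 FPKM. In vein the libraries fell from 53.4 FPKM to 20.4 FPKM, and in aorta estrus replicate 1 had 1.48 FPKM against 6.71 to 11.3 FPKM in the other 5. Agtr1a was most like Cp (r = 0.88), Cxcl12 (r = 0.86) and Phyhd1 (r = 0.85).

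Ace was highest in duodenum, where it ranged from 68.2 to 431 FPKM, and in kidney, at 72.8 ± 9.90 FPKM. Both are tissues whose brush border membranes are known to carry the enzyme. Aorta at 31.6 ± 12.6 FPKM, or 26.6 ± 3.70 FPKM (n = 5) without estrus replicate 1, and vein at 29.0 ± 6.49 FPKM overlapped and stood above heart at 15.8 ± 2.68 FPKM, and vein and heart did not overlap. Liver had 0.315 ± 0.0862 FPKM, below BAT at 5.38 ± 1.98 FPKM in every library. Xpnpep2 (r = 0.84), another membrane peptidase, Plpp1 (r = 0.84) and Chmp6 (r = 0.83) had the most similar tissue means.

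Npr1 had the highest mean in aorta, 67.3 ± 48.6 FPKM, which rests on estrus replicate 1 at 162 FPKM. The other 5 aorta libraries had 38.4 to 77.9 FPKM, a mean of 48.4 ± 16.6 FPKM (n = 5), and by medians ovary was highest. Ovary had 47.3 ± 7.82 FPKM, vein 45.8 ± 8.65 FPKM, uterus 31.7 ± 16.7 FPKM, kidney 11.1 ± 2.13 FPKM and heart 9.20 ± 1.06 FPKM. Tcf7l1 (r = 0.95), Septin10 (r = 0.94) and Gas1 (r = 0.93) were most like it. Npr3, in contrast, was a gene of WAT, with 28.3 to 58.5 FPKM there, and BAT, the next tissue, had 4.28 to 12.4 FPKM without overlap. Aorta followed at 5.10 ± 0.910 FPKM, vein at 3.26 ± 0.464 FPKM, kidney at 3.08 ± 0.868 FPKM and heart at 2.93 ± 2.57 FPKM. Npr3 was most like Dlc1 (r = 0.88), Mc2r (r = 0.87) and Itgb1bp1 (r = 0.86).

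The 4 cardiovascular and renal tissues were then compared in 6 pairs, with 6 libraries of each tissue. Of the 54 member differences, 25 were called, 46.3%, beside 27.9% of all gene differences tested in these pairs. The 3 pairs with kidney held 17 of the 25. Ednra was called in 5 of the 6 pairs, Agt and Npr1 in 4 each, Nos3, Edn1, Agtr1a and Ace in 3 each, and Ednrb and Npr3 in none by limma at these limits. All adjusted p in this and the following paragraphs are from limma. The pairs share tissues and are not independent of each other, and the libraries were fitted as independent although they can share mice. The median log2 difference of all genes was −0.11 from vein to aorta, 0.27 from heart to aorta, 0.06 from kidney to aorta, 0.46 from heart to vein, 0.17 from kidney to vein and −0.22 from kidney to heart, and the member differences below were not corrected for it.

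**Figure D3:**
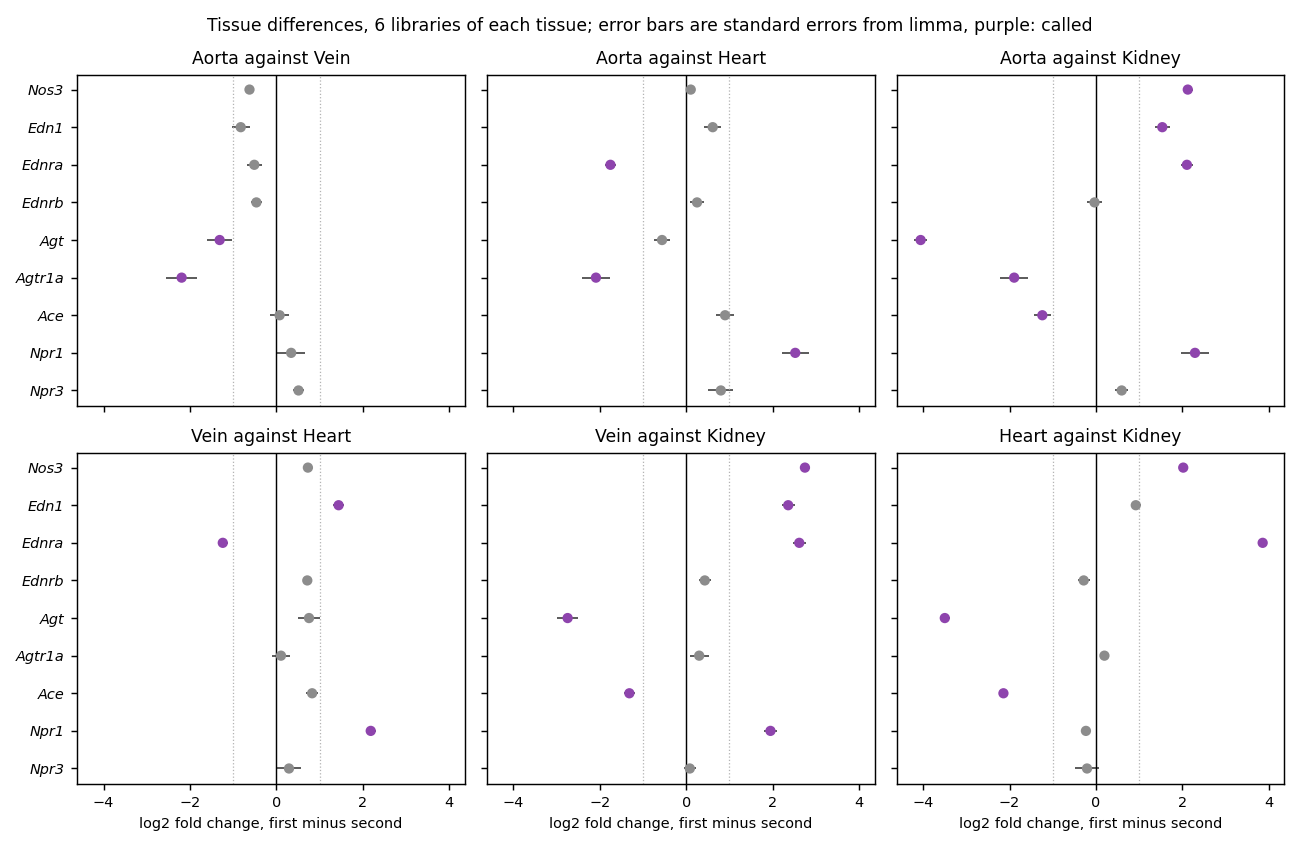
Log2 fold change (first tissue minus second, log2(FPKM + 1) scale) of the 9 genes in 6 pairs of tissues with the standard error from limma, 6 libraries per tissue; purple points were called and dotted lines mark the fold limit of 1 in either direction. Kidney differs from the other tissues by high Agt and Ace and low Nos3 and Ednra.

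Between the vessels, Agtr1a was lower in aorta than in vein by a log2 difference of −2.19 (SE 0.35, adjusted p = 0.000594) and Agt by −1.31 (SE 0.29, adjusted p = 0.00495), beside 11% of all genes called in either direction. Without aorta estrus replicate 1 the differences were −1.90 for Agtr1a and −1.33 for Agt, both still called, and Edn1 passed the limits as well at −1.02 (SE 0.12, adjusted p = 3.91e-05). With all libraries Edn1 differed by −0.83 (SE 0.21, adjusted p = 0.0119) and Nos3 by −0.62 (SE 0.10, adjusted p = 0.000391), which is less than the fold limit. Ace differed by 0.07 (SE 0.22), or −0.11 (SE 0.15) without that library, and Npr1 by 0.34 (SE 0.33), and neither was called. The vein libraries carried 310 to 660 FPKM of neuron markers against 3.62 to 10.3 FPKM in aorta. Hepatocyte markers summed to 539 to 1684 FPKM in vein and 65.8 to 882 FPKM in aorta. The fat and cardiomyocyte markers of aorta are given above. The part of these cell types in the differences between the vessels was not tested.

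Against heart, aorta had higher Npr1, by 2.52 (SE 0.31, adjusted p = 3.07e-05), and lower Agtr1a, by −2.09 (SE 0.32, adjusted p = 0.000146), and Ednra, by −1.75 (SE 0.12, adjusted p = 3.80e-07). Vein differed from heart by 2.18 for Npr1 (SE 0.12, adjusted p = 1.94e-09), 1.44 for Edn1 (SE 0.13, adjusted p = 4.54e-07) and −1.24 for Ednra (SE 0.12, adjusted p = 7.53e-07). Npr1 was thus higher and Ednra lower in both vessels than in heart, while Agtr1a in vein differed from heart by 0.11 (SE 0.21). Without aorta estrus replicate 1 the differences of aorta from heart were 2.22 for Npr1, −1.75 for Agtr1a and −1.66 for Ednra, all still called. The background was 22.7% of genes called between aorta and heart and 33.8% between vein and heart. Nos3 differed by 0.11 (SE 0.09) between aorta and heart, and by −0.20 (SE 0.07, adjusted p = 0.0401) when the libraries were scaled by the median ratio.

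Kidney stood out among the members by its renin-angiotensin genes. Agt was lower than in kidney by −4.06 in aorta (SE 0.15, adjusted p = 2.18e-10), −2.75 in vein (SE 0.25, adjusted p = 2.85e-07) and −3.50 in heart (SE 0.11, adjusted p = 1.14e-12). Ace was lower by −1.24 in aorta (SE 0.19, adjusted p = 0.000127), −1.32 in vein (SE 0.13, adjusted p = 1.05e-06) and −2.14 in heart (SE 0.11, adjusted p = 2.26e-10). Agtr1a was called lower in aorta, at −1.89 (SE 0.33, adjusted p = 0.000298), and differed from kidney by 0.30 (SE 0.22) in vein and 0.20 (SE 0.09) in heart.

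Nos3 and Ednra were lower in kidney than in all 3 other tissues. Nos3 was higher by 2.13 in aorta (SE 0.12, adjusted p = 1.04e-08), 2.75 in vein (SE 0.11, adjusted p = 7.26e-11) and 2.02 in heart (SE 0.09, adjusted p = 7.35e-11). Ednra was higher by 2.11 in aorta (SE 0.14, adjusted p = 8.55e-08), 2.62 in vein (SE 0.15, adjusted p = 3.42e-09) and 3.86 in heart (SE 0.10, adjusted p = 6.41e-14). Beside Nos3, 6 of 8 endothelial markers were called higher than in kidney in each of the 3 tissues, with medians of 1.43 in aorta, 1.86 in vein and 1.61 in heart. Edn1 was called higher in aorta (1.54, SE 0.18, adjusted p = 1.23e-05) and vein (2.36, SE 0.15, adjusted p = 7.71e-09), and Npr1 in aorta (2.29, SE 0.32, adjusted p = 5.81e-05) and vein (1.95, SE 0.14, adjusted p = 2.99e-08). In heart these genes differed from kidney by 0.92 (SE 0.12) and −0.23 (SE 0.11) and were not called. All 7 calls between aorta and kidney remained without aorta estrus replicate 1, with 1.99 for Npr1, −1.55 for Agtr1a and −1.42 for Ace. The background in the kidney pairs was 29.9% with aorta, 33.6% with vein and 36.6% with heart.

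The other genes of these pathways, 51 in 5 lists, were read in the same pairs. Ren1, the renin gene, was lower than in kidney by −6.21 in aorta, −4.42 in vein and −6.35 in heart, and Hsd11b2, which shields the mineralocorticoid receptor from glucocorticoids, by −6.63, −6.60 and −6.70. Ren1 and Hsd11b2 were thus higher in kidney, as were Agt and Ace. Of 13 other renin-angiotensin-aldosterone genes, 7 of 10 tested were called lower in aorta, 6 of 10 in vein and 6 of 9 in heart, and 1 was called higher in each of the 3 tissues. Over all genes, 14.8% were called lower in aorta than in kidney, 12.6% in vein and 23.1% in heart. The shares called higher were 15.1%, 21% and 13.5%.

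The ligand genes of Npr1 and Npr3, Nppa and Nppb, had their highest levels among the 4 tissues in heart. Nppb was lower than in heart by −7.85 in aorta (SE 0.34, adjusted p = 9.07e-09) and −8.46 in vein (SE 0.24, adjusted p = 6.04e-12), and Nppa by −2.81 in aorta (SE 0.88, adjusted p = 0.0158) and −7.69 in vein (SE 0.61, adjusted p = 8.99e-08). The aorta mean of 61.8 FPKM of Nppa comes from libraries that also carry cardiomyocyte markers, whose part in it was not tested. Corin, the protease that activates the atrial peptide, was lower by −2.65 in aorta and −5.49 in vein. The receptor Npr1 and these ligand genes therefore stood in opposite order between heart and vessels.

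In the list of nitric oxide and cyclic GMP genes, 9 of 15 tested were called higher in vein than in kidney and 3 lower, and 6 of 13 higher in aorta and 3 lower. Over all genes, 21% were called higher in vein than in kidney and 12.6% lower, and 15.1% higher in aorta and 14.8% lower. Cav1, the caveolin that binds the synthase, was higher than in kidney by 4.06 in aorta, 3.97 in vein and 2.66 in heart, while the arginase gene Arg2 was lower by −4.50, −4.52 and −4.84. Between the vessels Gch1, which makes the cofactor of the synthase, was lower in aorta by −3.00 (SE 0.17, adjusted p = 9.12e-08), Ddah1 by −2.83 (SE 0.13, adjusted p = 2.42e-08) and Arg1 by −1.38 (SE 0.20, adjusted p = 0.000325). In the endothelin list Edn3 and Ece2 were lower in aorta than in vein, by −2.25 and −1.33, and Mme, a peptidase that degrades endothelin and natriuretic peptides, was lower than in kidney by −1.76 in aorta, −2.04 in vein and −4.68 in heart. The neuron markers of the vein libraries are given above. Their part in the differences of these genes between the vessels was not tested. Of the adrenergic receptors and calcium channel subunits, 8 of 10 tested were called higher in aorta than in kidney, with the largest differences for Adrb3 (5.98), Adra1d (3.30) and Cacna1c (2.02). Adrb3, the receptor of adipocytes, goes with the fat markers of the aorta libraries, and the part of the fat in its level was not tested. Without aorta estrus replicate 1, the genes named in this and the preceding 2 paragraphs kept their calls and directions in the comparisons given, and Adrb3 differed from kidney by 6.37.

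The second question was whether the members differed between estrus and diestrus within a tissue. A level of at least 1 FPKM over the 6 libraries was reached in 117 of the 135 combinations of gene and tissue. None of the 117 was called by limma, against 2 of 185469 gene tests over all genes, 0.00108%. At an unadjusted p under 0.05 limma had 24 of the 117, beside 7.84% of all gene tests. The smallest adjusted p of a member was 0.0938, and the largest difference was 1.01 on the log2 scale, for Edn1 in WAT. In a single fit of all 90 libraries 2613 of the gene tests over the 15 tissues were called, 1.14%, and again no member. A gene called in several tissues counts once for each.

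In 23 of the 117 combinations the 3 libraries of one phase lay wholly above those of the other. Estrus was lower in 17 of them, 14.5%, beside 9.31% of all gene tests, and higher in 6, 5.13%, beside 5.66%. The median log2 difference of the 117 was −0.02. Nos3 made up 6 of the 23 and Edn1 5, while Agtr1a and Npr3 had none among the tissues tested. The share of all genes without overlap differed widely between tissues. Higher and lower in estrus, in this order, were 2.39% and 9.54% of genes in aorta, 7.91% and 3.84% in heart, 4.25% and 3.73% in kidney, and 5.28% and 12.9% in vein. In hypothalamus they were 9.96% and 9.64%, in cerebrum 4.92% and 2.88%, in liver 4.48% and 6.84%, in uterus 3.24% and 4.67%, in spleen 3.09% and 5.7%, in stomach 1.64% and 12%, in duodenum 4.51% and 22.1%, and in BAT 12% and 18.1%. Either direction came to 30.1% in BAT, 26.6% in duodenum, 26.2% in muscle, 19.6% in hypothalamus, 18.2% in vein, 13.7% in ovary and stomach, 12% in WAT, 11.3% in liver, 8.78% in spleen, 7.98% in kidney, 7.91% in uterus and 7.8% in cerebrum. The 2 genes called in a tissue's own fit were 1 in muscle, 0.00936% of the genes there, and 1 in spleen, 0.00798%.

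**Figure D4:**
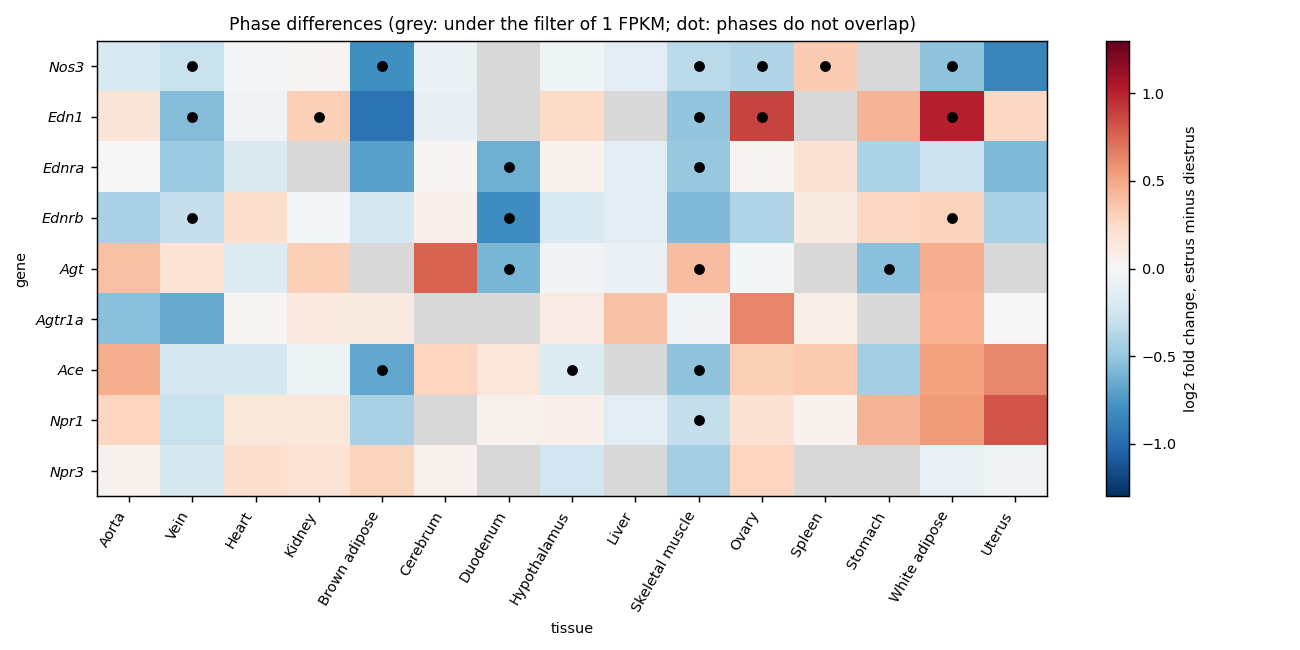
Log2 fold change of estrus minus diestrus for the 9 genes in 15 tissues (colour, log2(FPKM + 1) scale), with a dot where the 3 libraries of one phase do not overlap those of the other and grey where the mean is under 1 FPKM. None of the 117 coloured cells was called, and 23 have a dot, 17 of them lower in estrus.

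In aorta no member separated the phases, beside 11.9% of the 12553 genes tested there. Npr1 had 162, 38.4 and 40.5 FPKM in estrus and 77.9, 42.7 and 42.5 FPKM in diestrus. Ace had 56.4, 26.7 and 29.6 FPKM against 30.7, 24.4 and 21.6 FPKM, and Agtr1a 1.48, 9.57 and 9.0 FPKM against 11.3, 7.59 and 6.71 FPKM. In each of these the extreme value was that of estrus replicate 1, and without it no member was called either. Leaving it out turned the sign of the difference for Npr1 from 0.28 to −0.39, for Agtr1a from −0.55 to 0.14 and for Edn1 from 0.17 to −0.18, all of them uncalled. Nos3 had 18.6, 13.1 and 16.3 FPKM in estrus and 18.9, 17.9 and 18.2 FPKM in diestrus, a difference of −0.20 (SE 0.16, adjusted p = 0.933), and of −0.31 (SE 0.12, adjusted p = 0.421) without estrus replicate 1. With all libraries the phases overlapped. Of the endothelial markers 5 of 8 did not overlap and were lower in estrus, with a median of −0.41, or −0.31 without estrus replicate 1. Of the pathway genes, Nos2 (−0.94), Adrb3 (−1.31), Cma1 (−0.47), Adra1d (−0.46), Agtrap (−0.30) and Ece2 (−0.24) were lower in estrus without overlap and Cacna2d1 (0.79) and Cacna1c (0.70) higher, and for each the adjusted p was 0.933. Without estrus replicate 1 these were −0.69 for Nos2, −0.57 for Adrb3, 0.27 for Cacna2d1 and 0.26 for Cacna1c.

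In vein, Edn1 had 9.55, 7.66 and 8.75 FPKM in estrus and 14.3, 13.7 and 11.8 FPKM in diestrus. The phases did not overlap, and the difference was −0.56 (SE 0.13, adjusted p = 0.412). Nos3 followed with 22.9, 23.2 and 26.4 FPKM against 28.5, 33.9 and 27.3 FPKM, and Ednrb with 11.8, 10.9 and 10.9 FPKM against 14.4, 13.9 and 13.7 FPKM, both also lower in every estrus library. These are 3 of the 9 members, beside 12.9% of all genes lower without overlap in vein. The endothelial markers in the same libraries summed to 421 to 600 FPKM in estrus and 556 to 751 FPKM in diestrus, and estrus replicate 3 had 195 FPKM of lymphocyte markers against 6.17 to 9.06 FPKM in the other 5. Fibroblast markers summed to 543 to 867 FPKM in estrus and 868 to 1510 FPKM in diestrus, hepatocyte markers to 1643 to 1684 FPKM and 539 to 1156 FPKM, and white adipocyte markers to 2030 to 3206 FPKM and 1124 to 2221 FPKM. The part of these cell types in the result was not tested.

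In heart no member separated the phases, beside 11.7% of genes in either direction. Ednra had 24.7, 27.6 and 22.6 FPKM in estrus and 30.5, 28.1 and 27.0 FPKM in diestrus, which overlapped (−0.19, SE 0.09, adjusted p = 0.803). In kidney Edn1 alone did so, with 1.52, 1.73 and 1.38 FPKM in estrus and 0.96, 1.15 and 1.02 FPKM in diestrus, a difference of 0.31 (SE 0.14, adjusted p = 1.00), beside 4.25% of genes higher without overlap. Agt in kidney had 51.5, 58.4 and 59.0 FPKM against 40.3, 52.0 and 43.9 FPKM, and the groups overlapped by 1 library.

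Whether the phase difference itself differed between aorta and vein, heart or kidney was tested as an interaction in limma. Of 27 member tests none was called, nor was any gene. The smallest adjusted p were 0.696 against vein, 0.938 against heart and 0.928 against kidney. At an unadjusted p under 0.05, 432 of 13225, 624 of 12360 and 551 of 13116 genes passed, and among the members Ednrb against heart, with a difference of −0.64 (SE 0.26).

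Nos3 was the member whose phases separated in most tissues. It was lower in estrus in BAT, with 9.56, 9.30 and 6.81 FPKM against 15.5, 18.02 and 13.3 FPKM (−0.80, SE 0.20, adjusted p = 0.229), and WAT, with 19.4, 26.3 and 22.6 FPKM against 36.3, 28.4 and 34.2 FPKM (−0.52, SE 0.15, adjusted p = 0.791). It was also lower in ovary, with 7.89, 7.66 and 6.79 FPKM against 10.8, 8.51 and 11.0 FPKM (−0.39), and in skeletal muscle, with 4.86, 4.42 and 3.51 FPKM against 5.22, 6.07 and 5.77 FPKM (−0.35). In spleen it was higher, with 3.32, 3.34 and 2.31 FPKM against 2.12, 2.08 and 2.28 FPKM (0.33). Duodenum, at under 1 FPKM and not tested, had 0.43, 0.14 and 0.54 FPKM against 0.95, 1.02 and 0.75 FPKM. The background lower in estrus without overlap was 18.1% in BAT, 2.74% in WAT, 5.58% in ovary, 12.9% in vein and 21.9% in muscle, and 3.09% of genes were higher in spleen. In BAT the 6.81 FPKM of Nos3 came from estrus replicate 3, which had about 74500 reads. The other estrus libraries of BAT also lay below diestrus. Estrus replicate 3 also enters the marker sums of BAT below.

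The endothelial markers had a median difference of the same sign as Nos3 in these tissues other than WAT. It was −0.62 in BAT, −0.38 in ovary, −0.38 in muscle, −0.32 in vein and 0.21 in spleen. In muscle the 8 markers summed to 78.8 to 113 FPKM in estrus and 125 to 129 FPKM in diestrus, in BAT to 209 to 282 FPKM and 369 to 431 FPKM, and in ovary to 135 to 148 FPKM and 172 to 211 FPKM. In vein and in spleen, with 93.8 to 119 FPKM in estrus and 97.3 to 107 FPKM in diestrus, these sums overlapped. Fibroblast markers in ovary summed to 498 to 735 FPKM in estrus and 331 to 404 FPKM in diestrus and granulosa and luteal markers to 1850 to 2576 FPKM and 2575 to 3076 FPKM, and their part in the result was not tested. Taken relative to the summed endothelial list of the library, a scale chosen after the values were seen, Nos3 differed by −0.12 (SE 0.24) in BAT, 0.07 (SE 0.14) in muscle, 0.00 in ovary and in vein (SE 0.17 and 0.20) and 0.27 (SE 0.14) in spleen.

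WAT differed from these tissues. There the median of the endothelial markers was 0.10 while that of Nos3 was −0.52, and Nos3 came to 4.87% to 9.02% of the endothelial sum in estrus and 10.2% to 11.2% in diestrus. The phases did not overlap on this scale either, as did 3.77% of genes lower in estrus, and the difference of −0.63 (SE 0.23) had an adjusted p of 0.843 in limma. Smooth muscle markers in WAT summed to 223 to 2566 FPKM in estrus and 108 to 163 FPKM in diestrus and fibroblast markers to 442 to 1762 FPKM and 308 to 333 FPKM, and their part in the result was not tested.

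**Figure D5:**
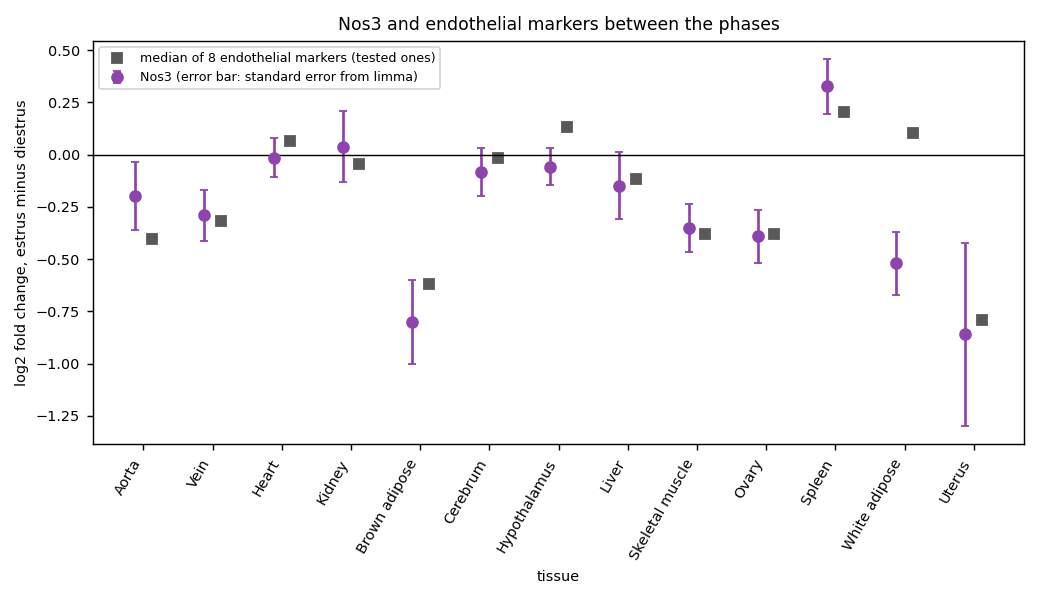
Log2 fold change of estrus minus diestrus for Nos3 (circles, with the standard error from limma) and the median of the endothelial markers tested (squares) in the 13 tissues where Nos3 reached 1 FPKM. They lie furthest apart in WAT, at −0.52 and 0.10, and on opposite sides of 0 also in hypothalamus (−0.06 and 0.13), heart (−0.01 and 0.07) and kidney (0.04 and −0.05).

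Edn1 went both ways. Beside vein, it was lower in estrus in muscle, with 0.79, 0.80 and 0.64 FPKM against 1.24, 1.44 and 1.82 FPKM (−0.51, SE 0.12, adjusted p = 0.105). It was higher in WAT, with 5.74, 1.98 and 3.94 FPKM against 1.56, 1.02 and 1.37 FPKM (1.01, SE 0.29, adjusted p = 0.791), and in ovary, with 1.92, 2.02 and 6.65 FPKM against 1.42, 0.82 and 1.48 FPKM (0.88, SE 0.39, adjusted p = 0.838). The background higher in estrus without overlap was 9.25% in WAT and 8.13% in ovary. In WAT the summed smooth muscle and fibroblast markers given above were likewise higher in every estrus library. Their part in the Edn1 values of WAT was not tested. The ovary library with 6.65 FPKM, estrus replicate 3, also carried 387 FPKM of uterine epithelial markers against 12.0 to 18.9 FPKM in the other 5, and its part in the Edn1 value was not tested. In uterus itself Edn1 overlapped, with 18.6, 12.9 and 18.8 FPKM in estrus and 10.5, 25.5 and 9.25 FPKM in diestrus.

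Skeletal muscle held more of the separated phases than any other tissue, 6 of 9 members. Nos3, Edn1, Ednra, Ace and Npr1 were lower in estrus and Agt higher, beside 21.9% of all genes lower and 4.27% higher. Ace had the smallest adjusted p of any member and tissue, 0.0938, with 8.88, 8.56 and 8.28 FPKM in estrus and 13.4, 10.9 and 14.4 FPKM in diestrus (−0.53, SE 0.10). Ednra had 0.98, 0.79 and 0.68 FPKM against 1.51, 1.34 and 1.85 FPKM (−0.50, SE 0.12, adjusted p = 0.107), and Npr1 4.66, 4.31 and 4.0 FPKM against 5.34, 5.88 and 5.62 FPKM (−0.31, SE 0.08, adjusted p = 0.11). Agt had 8.86, 6.95 and 7.87 FPKM against 5.02, 6.44 and 5.77 FPKM (0.40, SE 0.11, adjusted p = 0.127). At an unadjusted p under 0.05 limma had 7 of the 9 members in muscle, beside 20.8% of all genes. The muscle fibre markers summed to 69270 to 79501 FPKM in estrus and 64178 to 71562 FPKM in diestrus, and the fibroblast markers to 147 to 246 FPKM and 251 to 302 FPKM, beside the lower endothelial sum given above. Their part in the result was not tested.

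Of the remaining separations, Ednrb was lower in estrus in duodenum, with 2.88, 2.88 and 3.88 FPKM against 5.97, 7.64 and 5.53 FPKM (−0.81, SE 0.20, adjusted p = 0.368), and higher in WAT, with 16.3, 13.1 and 14.6 FPKM against 11.0, 11.9 and 12.2 FPKM (0.30, SE 0.12, adjusted p = 0.791). Agt was lower in duodenum, by −0.60, and stomach, by −0.54. Ednra was lower in duodenum, by −0.63, where 22.1% of all genes were lower without overlap. In duodenum endothelial markers summed to 22.4 to 26.2 FPKM in estrus and 29.9 to 41.7 FPKM in diestrus, lymphocyte markers to 85.1 to 405 FPKM and 41.4 to 65.1 FPKM, and smooth muscle markers to 163, 180 and 1716 FPKM against 367 to 449 FPKM. Their part in the duodenum values was not tested, nor was that of the WAT markers given above in the Ednrb values of WAT. Ace was lower in hypothalamus, with 10.5, 10.4 and 11.1 FPKM against 12.1, 12.7 and 11.9 FPKM (−0.18, SE 0.05, adjusted p = 0.272), and in BAT, by −0.68. BAT estrus replicate 3, the shallow library, listed Edn1, Ednra and Agt at 0, and without it BAT had 2.11 ± 1.22 FPKM of Edn1, 1.96 ± 0.412 FPKM of Ednra and 1.04 ± 0.492 FPKM of Agt (n = 5). The difference of Ace in BAT includes this library.

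The 51 other pathway genes were read in the same way. Of their 463 tests in the 15 tissues none was called by limma, 57 did not overlap and were lower in estrus and 23 did not overlap and were higher, with a median of −0.03, beside 9.31% lower and 5.66% higher of all gene tests. In the list of nitric oxide and cyclic GMP genes 28 of 167 tests were lower and 6 higher without overlap.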

How the data were processed

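RNA of 15 tissues was sequenced on the BGISEQ-500, giving 90 libraries. Per the study's methods, the authors filtered reads with SOAPnuke, mapped them to GRCm38.p5 with Bowtie2 and estimated gene abundance with RSEM. The versions, Bowtie2 2.2.5 and RSEM 1.2.8, are from the submitters' processing notes. The deposited unit is FPKM, without counts or totals. The depth was approximated from the steps between the FPKM of 1478 short genes, and since 65.0% to 84.0% of the values of a library came within 0.2 of a whole read, counts were not recovered and no count test was run.

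Genes averaging 1 FPKM or more across the compared libraries were tested here on log2(FPKM + 1) using R 4.3.3 and limma 3.58.1, letting the variance prior follow intensity, with no covariates within a tissue, the phase as a covariate between tissues and Benjamini-Hochberg adjustment. The pseudocount of 1 understates changes of low genes. With 3 libraries against 3 an exact permutation test of one gene cannot go below a p of 0.1. The procedure was also run on simulated data with independent normal noise. Its recovery is not given here, so it does not show how small a phase difference could have been called. Symbols were found for 20265 of 20414 identifiers in the RefSeq table of GRCm38.p6. Other steps used Python 3.11.15, numpy 2.4.6, pandas 2.3.3, scipy 1.17.1 and matplotlib 3.10.9.

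Named were the 9 members, the 3 genes most like each, the pathway genes called in a pair (at most 3 per list) and those without overlap of the phases in aorta. The members, pathway lists and marker lists were chosen with earlier results of these data known. Replicate numbers were not used as pairs. The correlation of deviations between same-numbered libraries of the 2 phases was −0.52 to 0.44 over 45 pairs, with a median of 0.01 and 8 above 0.1. Between libraries of the same phase and number in aorta, vein, heart and kidney it was −0.08 to 0.43 over 36 pairs, with a median of 0.07 and 17 above 0.1.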

Additional observations from a re-analysis of the deposited data

Results flagged for a closer look

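In 16 of 135 sets of 6 libraries, 1 library lay far from the other 5 by Dixon's criterion at its 95% limit, which chance alone gives for about 1 set in 20. These 16 sets point to 11 libraries, 10 of them from estrus. In aorta estrus replicate 1 had 10.3 FPKM of Edn1 (others up to 6.27), 56.4 FPKM of Ace (up to 30.7) and 162 FPKM of Npr1 (up to 77.9). Estrus replicate 1 also stood apart in WAT, with 19.3 FPKM of Agtr1a (up to 9.76) and 47.8 FPKM of Npr1 (up to 27.15), in stomach, with 6.11 FPKM of Ednrb (up to 2.40), 1.19 FPKM of Agtr1a (up to 0.41) and 3.72 FPKM of Npr1 (up to 1.26), and in duodenum, with 4.72 FPKM of Npr1 (up to 1.58). In these 4 libraries the smooth muscle markers were the highest of their tissue, at 16214 FPKM in aorta, 2566 FPKM in WAT (others up to 271), 4702 FPKM in stomach (up to 1686) and 1716 FPKM in duodenum (up to 449). Their part in the values was not tested.

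The other libraries that stood apart were ovary estrus replicate 3 with 6.65 FPKM of Edn1, liver estrus replicate 1 with 3.08 FPKM of Ednrb, where the other 5 had 5.04 to 5.59 FPKM, uterus diestrus replicate 3 with 12.8 FPKM of Ednrb, uterus estrus replicate 3 with 4.15 FPKM of Agt, BAT estrus replicate 3 with 12.9 FPKM of Agtr1a, BAT estrus replicate 1 with 12.4 FPKM of Npr3 and heart estrus replicate 3 with 8.08 FPKM of Npr3. The BAT library with 12.9 FPKM is the shallow one. Uterus diestrus replicate 3 had 644 FPKM of uterine epithelial markers against 1999 to 2667 FPKM in the other 5.

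In 15 pairs of tissues all estrus libraries lay above diestrus in one tissue and below it in the other. For Nos3 the difference of the phase differences was 1.13 between spleen and BAT, 0.68 between spleen and muscle, 0.72 between spleen and ovary, 0.62 between spleen and vein and 0.85 between spleen and WAT. For Edn1 it was 0.83 between kidney and muscle, 0.88 between kidney and vein, 1.39 between ovary and muscle, 1.44 between ovary and vein, 1.52 between WAT and muscle and 1.57 between WAT and vein. For Ednrb it was 1.11 between WAT and duodenum and 0.60 between WAT and vein, and for Agt 1.00 between muscle and duodenum and 0.94 between muscle and stomach, all on the log2 scale. Tested as an interaction in limma, the adjusted p were 0.12 to 0.862, and the tissue pairs were chosen for their opposite directions.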

How the results depend on the processing

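No member was called between the phases, and none in the interactions, under a pseudocount of 0.1, no filter on low values, FPKM rescaled to one sum, scaling by the median ratio, no intensity trend, one joint fit of the 90 libraries, a block for the replicate number, or any single library left out. The 25 calls between the 4 tissues came to 25 to 27 under these settings and to 25 to 26 with 1 library left out. The block with the replicate number gave 25 member calls between tissues and 0 between the phases, so it changed no member count. Over all genes, 5 gene tests in place of 2 were called between the phases. This count of gene tests was 1 with no filter and 2613 in the joint fit, and in muscle it went from 1 to 87 without muscle estrus replicate 1. The joint fit also called 11 gene tests in the interactions, where the separate fits called 0. The neighbouring tissues without overlap were 19, 20 by medians, 17 with FPKM rescaled to one sum and 21 without BAT estrus replicate 3.

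Of 1330 values of single genes under an alternative, 1307 kept their direction and their side of the limits. Between the phases, only the 23 combinations without overlap were followed. Leaving out 1 library cannot turn their sign, so these 137 values do not test direction. Combinations with overlap were not followed, among them Npr1, Agtr1a and Edn1 in aorta, which turned sign without estrus replicate 1. A further 16 of the 1330, none of them called, changed sign. With FPKM rescaled, Ace between aorta and vein was −0.0269. With the median ratio, Nos3 between aorta and heart was −0.20, Ednrb −0.0326, Agtr1a between vein and heart −0.41, Npr3 −0.0929 and Npr3 between vein and kidney −0.0802. Relative to the endothelial list, Nos3 was 0.072 in muscle, 0.0009 in ovary and 0.0022 in vein. With 1 library left out, Ace between aorta and vein ran from −0.1094 to 0.1956, Ednrb between aorta and kidney from −0.1031 to 0.0989, Npr3 between vein and kidney from −0.0074 to 0.1743 and Agtr1a between vein and heart from −0.0313 to 0.2315. Edn1 between vein and heart fell to 0.99, under the fold limit, with the median ratio. Edn1 between heart and kidney passed it at 1.32 with the pseudocount of 0.1, 1.07 with FPKM rescaled and 1.08 with the median ratio, and Npr3 between aorta and heart at 1.06 with the pseudocount of 0.1 and 1.10 without heart estrus replicate 3. The cause was not tested.

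Without counts, genes near 1 FPKM carry an unknown reading error, and 18 of 135 combinations of gene and tissue were not tested between the phases.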
